A study of Mus musculus with 12 samples.

Results

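The serotonin receptor genes of brain followed here were *Htr1a*, *Htr1b*, *Htr1d*, *Htr1f*, *Htr2a*, *Htr2c*, *Htr3a*, *Htr4*, *Htr6* and *Htr7*, measured in cerebellum and cerebral cortex of mice with and without an intact *Snx14*. They were found by matching the gene names of the GENCODE vM21 annotation and are 10 of the 55536 genes counted, each with 1 row. *Htr2a* had been picked because its knockout effect differed between the tissues in these same libraries, so its genotype and tissue differences are given as a description, with no test. The other 9 were taken as members of the family.

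The study sequenced mRNA from cerebellum and cortex of 1-month-old *Snx14*-KO and WT mice to look for changes that come before the loss of Purkinje cells. *Snx14* encodes a sorting nexin that acts where the endoplasmic reticulum meets lipid droplets. There were 12 libraries, 3 each of WT cerebellum, *Snx14*-KO cerebellum, WT cortex and *Snx14*-KO cortex, from mice numbered 1 to 3 within each genotype. The knockout is a full-body one on the C57BL/6J background, made with Cas9, in which both copies of *Snx14* carry 1 frameshift deletion of a single base, so all knockout mice share 1 allele. The sex of the mice was not given in the labels. Whole pieces of tissue were extracted, so in these bulk libraries fewer cells of a type and less RNA per cell cannot be told apart.

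Serotonin reaches both tissues through long axons of neurons that lie in the raphe nuclei of the brainstem. Most of its receptors are coupled to G proteins: the Htr1 receptors act through inhibitory G proteins that lower cyclic AMP, the Htr2 receptors through Gq and phospholipase C, and Htr4, Htr6 and Htr7 through Gs, which raises cyclic AMP. Htr3a is the exception, a subunit of a cation channel opened by serotonin. In cortex Htr2a is best known from the dendrites of deep-layer pyramidal neurons, Htr3a from a class of interneurons, and Htr1b from axon terminals, where it restrains release. Htr2c is abundant in the epithelium of the choroid plexus.

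Counts on genes came to between 16672589 and 19887427 per library. *Snx14* stood at 63.5 to 66.9 CPM in WT cerebellum against 10.4 to 11.2 in *Snx14*-KO cerebellum, and at 53.5 to 59.8 CPM in WT cortex against 7.68 to 8.49 in *Snx14*-KO cortex, so every library matched its label. CPM are counts scaled to the size of the library, here with TMM factors over the 12 libraries. Several cerebellum libraries stood apart. Markers of the midbrain tectum, which lies against the cerebellum, summed to 201 and 206 CPM in *Snx14*-KO mice 1 and 3, but to 53.7 in *Snx14*-KO mouse 2 and 53.6 to 64.9 in WT, and 8 of the 9 markers lay above every WT library in mice 1 and 3. Microglial markers summed to 461 CPM in *Snx14*-KO mouse 3 against 175 to 212 in the other 5 cerebella. Choroid plexus markers summed to 77.6 CPM in WT mouse 1 and 7538 in WT mouse 3. For the receptors, values that rest on these libraries are given with and without them.

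The stretches before the start of *Htr2a*, *Htr1a* and *Htr7* are shown because these are the receptors whose cerebellar values were the furthest above WT in at least 1 *Snx14*-KO library with over 50 counts, a choice made after their values were seen. They come from the RefSeq promoter table (build GRCm38.p6), which held 8 of the 10 receptors and not *Htr3a* or *Htr4*, and were cut where the RefSeq or GENCODE transcript begins, whichever came first. They read 5′ to 3′ on the strand of the gene, and the capitals mark the motif GGGCGG, the binding sequence of Sp1, on either strand.
*Htr2a*, chr14:74640624-74640839, plus strand: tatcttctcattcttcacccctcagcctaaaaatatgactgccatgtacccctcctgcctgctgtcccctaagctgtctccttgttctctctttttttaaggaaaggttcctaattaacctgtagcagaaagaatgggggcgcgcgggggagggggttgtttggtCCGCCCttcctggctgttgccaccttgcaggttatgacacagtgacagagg
*Htr1a*, chr13:105443443-105443638, plus strand: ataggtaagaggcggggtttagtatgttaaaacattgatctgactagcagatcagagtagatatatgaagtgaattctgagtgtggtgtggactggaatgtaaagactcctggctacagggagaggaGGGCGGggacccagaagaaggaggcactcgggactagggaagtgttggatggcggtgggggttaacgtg
*Htr7*, chr19:36057508-36057610, minus strand: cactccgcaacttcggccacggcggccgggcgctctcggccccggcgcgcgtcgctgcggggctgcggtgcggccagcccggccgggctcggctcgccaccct
The motifs searched, on both strands of the full window of 250 bases before to 50 after the RefSeq start, were the TATA box (TATAAA), the CCAAT box, the Sp1 motif above, the cyclic AMP response element (TGACGTCA) and the E-box (CACGTG). None of them overlaps another where found in these 3 windows. *Htr2a* held GGGCGG once, on the minus strand at position -85, and *Htr1a* once, on the plus strand at position -123. No other of the motifs was present in these windows, and none at all in that of *Htr7*. The Sp1 motif is in 35.7% of all 32851 windows, the CCAAT box in 37.4%, the TATA box in 13.6%, the E-box in 7.15% and the cyclic AMP response element in 1.79%. In base composition *Htr7* differed from the other 2: its window was 81.0% G or C with 46 CpG, and 98.4% of all windows held fewer. The windows of *Htr2a* and *Htr1a* were 52.0% and 52.3% G or C, with 6 and 7 CpG, near the median of 7.

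WT cerebellum and WT cortex differed in their leading receptors. Levels of different genes were compared as TPM, in which the count is divided by the exon length of the gene and scaled to the library. In WT cortex *Htr2a* led with 26.0 ± 2.52 TPM (SD, n = 3), followed by *Htr1a* at 16.8 ± 1.26, and neither overlapped its neighbour in the order. *Htr7* (10.1 ± 1.17), *Htr2c* (9.21 ± 2.88), *Htr3a* (9.01 ± 1.42), *Htr1b* (7.49 ± 0.964) and *Htr6* (7.24 ± 0.603) came next, and in this run each overlapped the one below. *Htr1f* stood at 3.47 ± 1.04 TPM, apart from both neighbours. *Htr4* (0.862 ± 0.310) and *Htr1d* (0.819 ± 0.329) were the lowest and overlapped.

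In WT cerebellum *Htr1b* led with 19.1 ± 3.37 TPM, ahead of *Htr2c* at 12.5 ± 12, whose 3 libraries ran from 2.02 to 25.6 and overlapped it. No other of the 10 passed 1.60 TPM in any WT cerebellum. *Htr7* (1.57 ± 0.0306) lay above *Htr6* (1.15 ± 0.0325) and that above *Htr2a* (0.80 ± 0.225), without overlap. *Htr2a*, *Htr1d* (0.724 ± 0.377) and *Htr1f* (0.212 ± 0.184) overlapped in turn, and *Htr1f* overlapped *Htr1a* (0.164 ± 0.0385). *Htr3a* and *Htr4* lay at or below 0.112 TPM, with at most 3 counts in a library. The 10 receptors together summed to 22.6, 33.3 and 52.9 TPM in the WT cerebella of mice 1, 2 and 3 and to 87.7 to 93.1 TPM in WT cortex. *Htr1b* made up 42.1 to 69.0% of that sum in WT cerebellum and 7.38 to 9.12% in WT cortex.

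**Figure D1:**
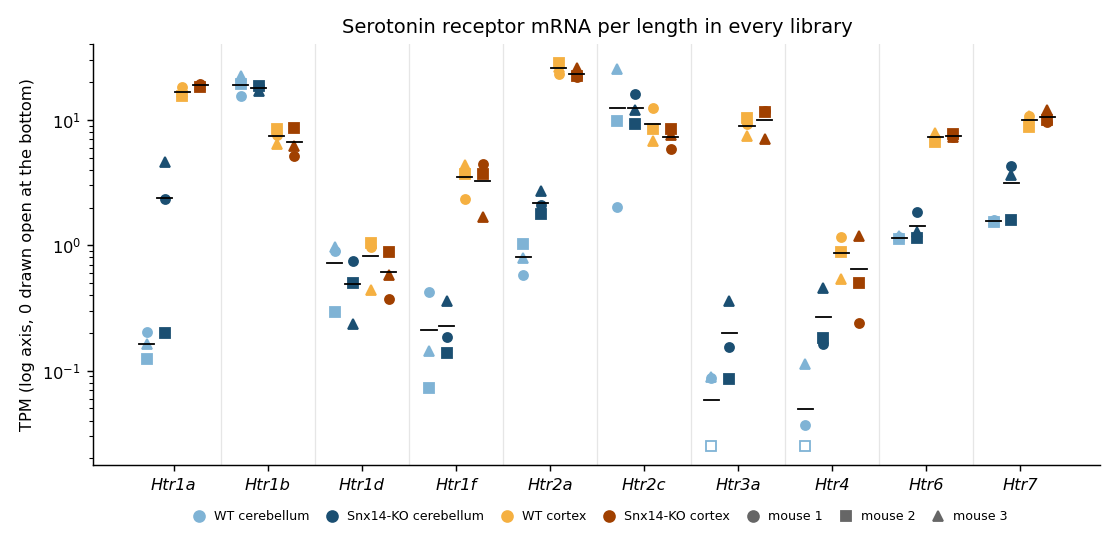
TPM of the 10 receptors in each of the 12 libraries, on a log axis; symbols are mice 1 to 3, black lines are group means, and libraries at 0 are open symbols at the bottom. *Htr2a* runs from 22.0 to 28.3 TPM in cortex and from 0.581 to 2.7 in cerebellum, while *Htr1b* is above cortex in every cerebellum library.

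In *Snx14*-KO cortex *Htr2a* (23.3 ± 2.09 TPM) and *Htr1a* (18.9 ± 0.456) led as in WT, and *Htr1d* was again last. In *Snx14*-KO cerebellum *Htr1b* (18.1 ± 0.958 TPM) and *Htr2c* (12.4 ± 3.37) kept the first places. *Htr7* (3.16 ± 1.41), *Htr1a* (2.37 ± 2.20) and *Htr2a* (2.19 ± 0.468) came next and overlapped, so by its mean *Htr1a* stood above *Htr2a* and *Htr6*, both of which lay above it in every WT cerebellum.

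Among the receptors that act through inhibitory G proteins, *Htr1a* and *Htr1f* were cortical and *Htr1b* cerebellar. *Htr1a*, the autoreceptor of serotonin neurons and a receptor of pyramidal cells, measured 25.0, 22.5 and 23.9 CPM in WT cortex and 0.278, 0.173 and 0.214 in WT cerebellum. The log2 fold change from cortex to cerebellum was -6.69 (standard error 0.195). It is given with no test, since *Htr1a* passed the filter on low counts only through cortex. *Htr1f* measured 1.86, 3.06 and 3.64 CPM in WT cortex against 0.333, 0.0576 and 0.107 in WT cerebellum (-4.04, standard error 0.505, with no test for the same reason). For both genes the tissues did not overlap, and WT cerebellum held 12 counts of *Htr1a* and 9 of *Htr1f* in all.

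*Htr1b* went the other way, with 22.6, 28.2 and 30.7 CPM in WT cerebellum and 11.0, 12.7 and 9.84 in WT cortex. Every cerebellum library lay above every cortex library, and the log2 fold change was 1.28 (standard error 0.142, adjusted p = 2.24e-05, edgeR). Of the exon bases of *Htr1b* (chr9:81628291-81633828, minus strand), 18.0% overlap *D430036J16Rik* on the other strand; since counting ignored strand and gave a read pair to every gene it touched, reads of that RNA may be part of this value. *Htr1d*, its close relative, had 5 to 20 counts in every WT library and did not pass the test (-0.24, standard error 0.489, adjusted p = 0.693, edgeR).

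Among the Gq-coupled receptors, *Htr2a* measured 40.2, 50.9 and 47.7 CPM in WT cortex and 1.00, 1.79 and 1.29 in WT cerebellum, which gives a log2 fold change of -5.08 (standard error 0.176), as a description. *Htr2c* showed no tissue difference that the spread allowed to be seen. It measured 5.78, 28.2 and 69.7 CPM in the WT cerebella of mice 1, 2 and 3 and 35.6, 25.3 and 20.4 in their cortices, and the fold change on the log2 scale was 0.36 (standard error 0.594, adjusted p = 0.626, edgeR). Its value was 0.86 and passed without cerebellum of WT mouse 1 (adjusted p = 0.0436, edgeR), -0.67 without that of WT mouse 3, and -0.02 with the mouse as a block.

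The choroid plexus markers moved with *Htr2c* in WT cerebellum. The 10 markers, among them *Ttr*, the transport protein that the plexus secretes, summed to 77.6, 2773 and 7538 CPM in the WT cerebella of mice 1, 2 and 3, in the same order as *Htr2c*. In *Snx14*-KO cerebella they summed to 2065, 3245 and 978 CPM, where *Htr2c* measured 44.5, 26.8 and 32.1 and did not follow that order. In cortex they summed to 11.0 to 143 CPM, the highest in WT mouse 1, which also had the highest *Htr2c* of the 6 cortices. None of the 10 markers was at 0 in a whole group, and their part in the *Htr2c* values was not tested.

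**Figure D2:**
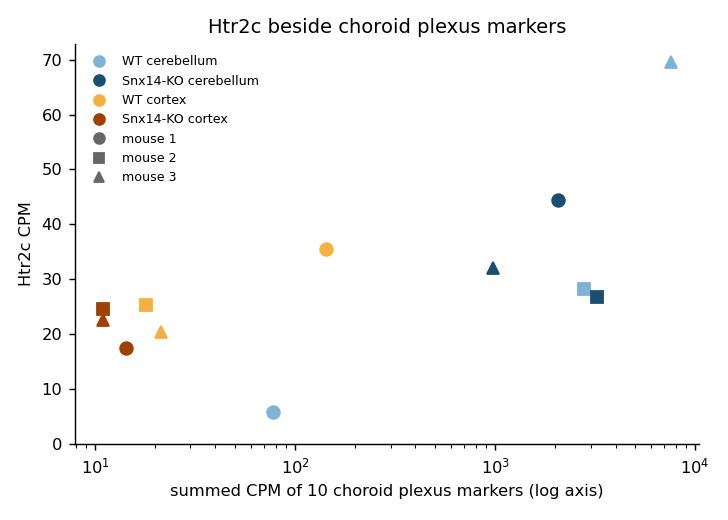
*Htr2c* in CPM against the summed CPM of 10 choroid plexus markers (log axis) in the 12 libraries. The 3 WT cerebella (5.78, 28.2 and 69.7 CPM of *Htr2c*) spread over the plot, while the 6 cortices keep 17.4 to 35.6 CPM at marker sums of at most 143.

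The channel subunit *Htr3a* was close to absent from cerebellum, with 1, 0 and 1 counts in WT mice 1, 2 and 3, against 112, 128 and 88 in their cortices. By summed counts cortex was 161-fold higher, with a 95% exact interval from 44.2 to 1330 that covers counting error only. The fitted log2 fold change was -7.08 (standard error 0.429), given with no test, since *Htr3a* passed the filter on low counts only through cortex. The library with 0 counts allows up to 3 counts, or 0.173 CPM.

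All 3 Gs-coupled receptors were lower in WT cerebellum. *Htr6* measured 5.20, 4.99 and 5.91 CPM in WT cortex and 0.833, 0.807 and 0.804 in WT cerebellum (log2 fold change -2.7, standard error 0.219, adjusted p = 1.96e-06, edgeR). *Htr7* measured 11.2, 9.49 and 11.8 CPM in WT cortex and 1.67, 1.61 and 1.56 in WT cerebellum (-2.74, standard error 0.174, adjusted p = 2.89e-07, edgeR). Both were even across WT cerebella, with groups that did not overlap. *Htr4* had 33, 26 and 15 counts in WT cortex and 1, 0 and 3 in WT cerebellum, an 18.1-fold difference of the sums (95% exact interval 6.79 to 68.3, counting error only). Its fitted log2 fold change was -4.05 (standard error 0.653), given with no test, since *Htr4* passed the filter on low counts only through cortex.

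In total, of the 9 receptors other than *Htr2a*, 6 were called lower in WT cerebellum than in WT cortex and 1 higher. A gene was called where its adjusted p was under 0.05 and its log2 fold change beyond 0.50 in either direction, which 21.4% and 19.0% of the 18543 genes tested met in those directions. Of the 6, *Htr1a*, *Htr1f*, *Htr3a* and *Htr4* had at most 6 counts in any WT cerebellum and passed the filter on low counts only through cortex, so their count is no support. In *Snx14*-KO mice 5 were called lower and 2 higher (19.6% and 18.2% of 18542 genes). Of the 5, *Htr1a*, *Htr1f* and *Htr3a* again passed the filter only through cortex, so their count is no support either. For *Htr1a* only 2 *Snx14*-KO cerebella reached the count that the filter asks for. *Htr4* did not pass the test and *Htr1d* was too low to be tested.

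**Figure D3:**
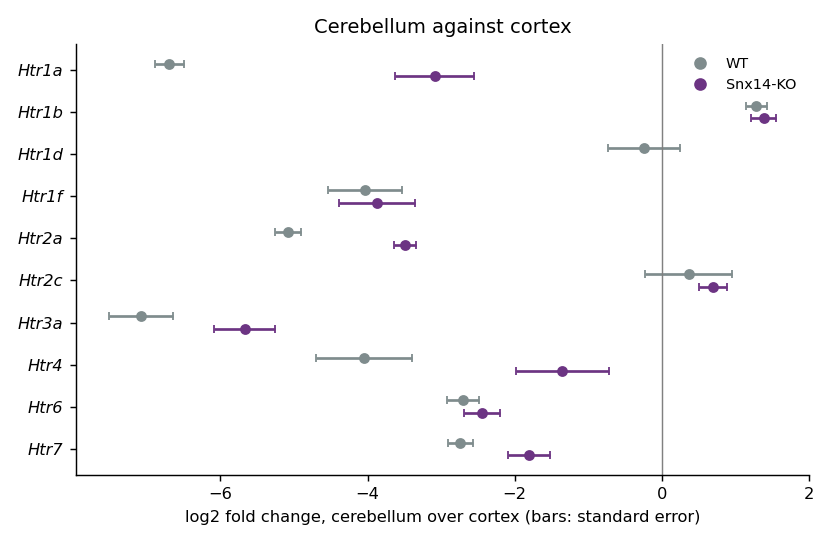
Log2 fold change of cerebellum over cortex for each receptor in WT (grey) and *Snx14*-KO mice (purple), with standard errors as bars; *Htr1d* was not tested in *Snx14*-KO mice. *Htr1b* lies to the right of 0 at 1.28 and 1.38, and *Htr1a* shifts from -6.69 in WT to -3.09 in *Snx14*-KO mice.

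Between the tissues of *Snx14*-KO mice *Htr1a* gave -3.09 on the log2 scale (standard error 0.534) and -6.56 with mouse 2 as the only *Snx14*-KO cerebellum. Both are given with no test, since *Htr1a* passed the filter only through cortex. *Htr7* gave -1.81 (standard error 0.287, adjusted p = 0.00046, edgeR) and -2.77 with mouse 2 alone, close to the WT value of -2.74. *Htr6* (-2.44) and *Htr1b* (1.38) were called in the same direction as in WT. *Htr1f* gave -3.87 and *Htr3a* -5.67 from at most 5 counts in any *Snx14*-KO cerebellum, and *Htr2a* stood at -3.49 (standard error 0.149), as a description. *Htr2c* was called higher in *Snx14*-KO cerebellum (0.69, standard error 0.189, adjusted p = 0.0119, edgeR), but its value was 0.46 without cerebellum of mouse 1 and 0.32 without those of mice 1 and 3, and then it was not called. *Htr4* gave -1.35 (adjusted p = 0.0993, edgeR), and -1.27 with the mouse as a block, which passed (adjusted p = 0.0475, edgeR). It also passed with no filter on low counts (-1.36) and without cortex of *Snx14*-KO mouse 1 (-1.73). Over the fits without 1 library it ran from -1.92 without cerebellum of mouse 3 to -0.56 without cortex of mouse 3.

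In *Snx14*-KO against WT cerebellum, *Htr2a*, the gene picked on these libraries, measured 3.49, 3.08 and 4.38 CPM in *Snx14*-KO mice 1, 2 and 3 and 1.00, 1.79 and 1.29 in WT mice, from 73, 56 and 81 counts against 18, 31 and 24. The groups did not overlap. The log2 fold change was 1.44 (standard error 0.288), that is 2.7-fold by summed counts, and it ranged from 1.25 to 1.68 without any 1 library. With *Snx14*-KO mouse 2 alone, a choice made after seeing the data, it was 1.19. The gene (chr14:74640840-74709494, plus strand) shares no exon bases with another gene.

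*Htr7* and *Htr1a* were high in *Snx14*-KO mice 1 and 3 and at the WT level in mouse 2. *Htr7* measured 4.35, 1.65 and 3.57 CPM in *Snx14*-KO mice 1, 2 and 3, and 1.67, 1.61 and 1.56 in WT. Its log2 fold change was 1.00 (standard error 0.350, adjusted p = 0.455, edgeR), which was not called. It became 1.30 without mouse 2, given with no test, a fit in which edgeR called 244 of all genes higher, and 0.05 with mouse 2 alone.

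*Htr1a* measured 3.10, 0.275 and 5.95 CPM in *Snx14*-KO cerebella, from 65, 5 and 110 counts, against 3 to 5 counts in each WT cerebellum. Since only 2 libraries reached the count that the filter asks for, it was left out of this comparison. In the fit of the 12 libraries it passed the filter through its counts in cortex. DESeq2 gave 3.81 (standard error 0.778, adjusted p = 0.000507), edgeR without the filter 3.78 (adjusted p = 0.000486), and the edgeR fit of all 12 libraries 3.77 (adjusted p = 0.0738). Without any 1 WT mouse it was 3.64 to 3.96 and without *Snx14*-KO mouse 2 it was 4.32, values given with no test, since the gene then passes the filter only through the pair of libraries in which it is high. The single exon of the gene (chr13:105443639-105448122, plus strand) overlaps no other gene.

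Markers of neighbouring tissue moved with these receptors, each in its own way. Of the 9 midbrain tectum markers 8 followed the pattern of *Htr1a* and *Htr7* in that they lay above every WT library in mice 1 and 3. *Barhl2* did not, at 21.9, 22.6 and 17.9 CPM in *Snx14*-KO mice 1, 2 and 3 against 24.9, 25.9 and 20.7 in WT. *Tcf7l2* and *Slc17a6*, both strong in the midbrain, measured 62.4 and 102 CPM in *Snx14*-KO mouse 1 and 64.1 and 105 in mouse 3, but 6.55 and 23.2 in mouse 2, where WT had 4.72 to 8.07 and 27.1 to 30.3. *Tfap2d* measured 5.83 and 6.55 CPM in mice 1 and 3 and 0 in mouse 2. *Htr2a* measured 3.08 CPM in mouse 2, against at most 1.79 in WT. The part of midbrain tissue in the values of *Htr1a*, *Htr7* and *Htr2a* was not tested.

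Of the forebrain markers, *Emx1*, *Tbr1* and *Fezf2*, which are typical of cortex, were at or below 1.21 CPM in every cerebellum, against 19.7 to 176 in WT cortex. Set against its level in WT cortex, the mean difference between *Snx14*-KO and WT cerebellum was 4.95% for *Htr2a*, 12.1% for *Htr1a* and 14.6% for *Htr7*. For those 3 markers it was -0.842% (*Emx1*), -0.0432% (*Tbr1*) and -0.00106% (*Fezf2*), and it was 4.80% for *Nrgn* and 3.36% for *Lhx2*. Of the 12 forebrain markers, 5, 5 and 6 lay above every WT cerebellum in *Snx14*-KO mice 1, 2 and 3, and 1, 0 and 1 below. In mouse 2 alone the difference was 3.73% for *Htr2a*, 3.13% for the forebrain marker *Neurod6*, 0.962% for *Slc30a3* and 0.305% for *Nrgn*. The part of forebrain tissue in the values of these receptors was not tested.

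Meningeal fibroblast markers, like *Htr2a*, were higher in all 3 *Snx14*-KO cerebella. The 10 markers, among them *Col1a1* and *Col3a1*, summed to 470, 439 and 458 CPM in *Snx14*-KO mice 1, 2 and 3 and to 163, 332 and 331 in WT, with 8 or 9 of the 10 above every WT library and none at 0. Their median log2 fold change was 1.15, edgeR called 0 of the 10 and DESeq2 7, and 8 were higher at an unadjusted p under 0.05, against 0.76% and 5.78% of all genes for the last 2 counts. In cortex they summed to 358 CPM in *Snx14*-KO mouse 2 and to 88.8 to 139 in WT. The part of these cells in the cerebellar values of *Htr2a* was not tested.

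**Figure D4:**
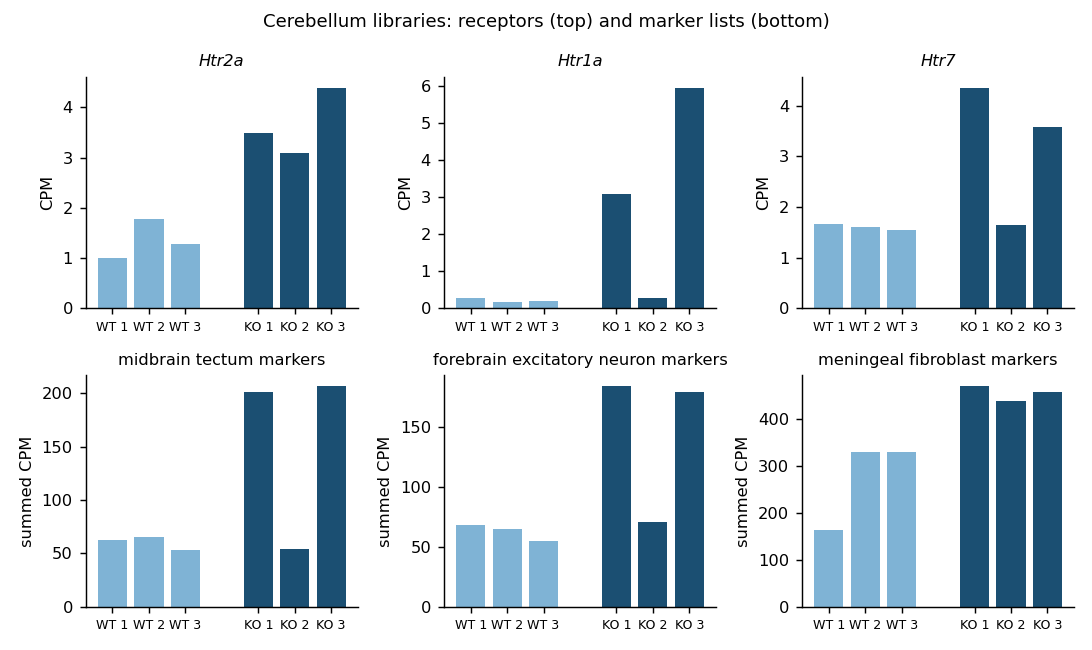
The 6 cerebellum libraries: CPM of *Htr2a*, *Htr1a* and *Htr7* (top) and summed CPM of 9 midbrain tectum, 12 forebrain and 10 meningeal markers (bottom). *Htr1a*, *Htr7* and the tectum markers are high in *Snx14*-KO mice 1 and 3 and at the WT level in mouse 2, while *Htr2a* (3.08 CPM) and the meningeal markers (439) are above WT in mouse 2 too.

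*Htr4* had 5, 5 and 12 counts in *Snx14*-KO cerebella and 1, 0 and 3 in WT, so its groups did not overlap, but it was left out by the filter. The sums gave a 5.16-fold difference (95% exact interval 1.75 to 20.6, counting error only), and neither DESeq2 (log2 fold change 2.41, adjusted p = 0.83) nor edgeR without the filter (2.30, adjusted p = 0.455) called it. *Htr3a* had 2, 1 and 4 counts against 1, 0 and 1, and *Htr1f* 3, 2 and 5 against 6, 1 and 2; at this depth no genotype difference was detectable for either. The ratios of the sums were 3.28 (0.625 to 32.4) and 1.04 (0.381 to 2.90).

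The other 4 receptors did not pass the test in cerebellum. *Htr1b*, the leading cerebellar receptor, measured 26.2, 27.3 and 23.2 CPM in *Snx14*-KO mice against 22.6, 28.2 and 30.7 in WT, and its log2 fold change was -0.08 (standard error 0.128, adjusted p = 0.953, edgeR). For *Htr6* it was 0.30 (standard error 0.340), and 0.07 without *Snx14*-KO mouse 1. For *Htr1d*, with 4 to 17 counts a library, it was -0.52 (standard error 0.564), and from -0.95 without *Snx14*-KO mouse 1 to -0.20 without *Snx14*-KO mouse 3. *Htr2c* gave 0.00 (standard error 0.622), and -0.50 without WT mouse 1 or 1.03 without WT mouse 3. Of the 5 tested receptors other than *Htr2a*, edgeR called 0 in either direction, against 0% of the 18201 genes tested higher and 0.00549% lower. At an unadjusted p under 0.05, 1 was higher (*Htr7*) and 0 lower, against 5.78% and 2.37% of all genes. DESeq2 called 1 of the 9 higher, *Htr1a*, and 0 lower, against 0.76% and 0.0507% of its genes. No tested receptor had its *Snx14*-KO cerebella wholly below WT, as 6.32% of all genes did.

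In cortex no receptor differed between genotypes past the test. *Htr2a* measured 39.0, 38.5 and 45.9 CPM in *Snx14*-KO mice and 40.2, 50.9 and 47.7 in WT, which overlap, with a log2 fold change of -0.17 (standard error 0.102), as a description. *Htr1a* was the only one of the 10 whose groups did not overlap: 27.4, 25.6 and 27.0 CPM in *Snx14*-KO mice against 25.0, 22.5 and 23.9 in WT. Its log2 fold change was 0.17 (standard error 0.0897, adjusted p = 0.996, edgeR), and 4.57% of all genes did not overlap in that direction, against 4.67% in the other. *Htr7* (0.07, standard error 0.143), *Htr6* (0.04, standard error 0.163) and *Htr3a* (0.15, standard error 0.212) lay close to 0.

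The remaining cortical receptors had lower means in *Snx14*-KO mice, within the spread. *Htr2c* measured 17.4, 24.6 and 22.5 CPM against 35.6, 25.3 and 20.4 (log2 fold change -0.33, standard error 0.183), and -0.08 without WT mouse 1. *Htr1b* measured 7.68, 12.6 and 9.29 CPM against 11.0, 12.7 and 9.84 (-0.18, standard error 0.181). *Htr1d* (-0.41), *Htr4* (-0.42) and *Htr1f* (-0.10) had standard errors of 0.455, 0.490 and 0.349, and the value of *Htr4* ran from -1.20 without *Snx14*-KO mouse 3 to -0.05 without *Snx14*-KO mouse 1. Of the 9 receptors other than *Htr2a*, edgeR called 0 in either direction (0% of 18255 genes higher and 0.00548% lower), 0 had an unadjusted p under 0.05 (2.24% and 2.26%) and DESeq2 called 0 (0.0238% and 0.0397% of its genes).

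**Figure D5:**
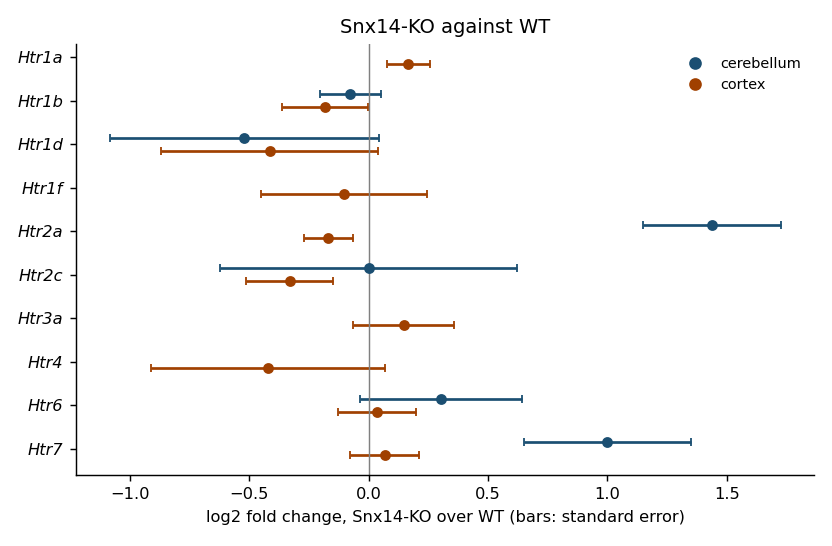
Log2 fold change of *Snx14*-KO over WT for each receptor in cerebellum (blue) and cortex (brown), with standard errors as bars; *Htr1a*, *Htr1f*, *Htr3a* and *Htr4* were too low to be tested in cerebellum. *Htr2a* (1.44) and *Htr7* (1.00) lie furthest to the right, both in cerebellum, and all cortical values lie between -0.42 and 0.17.

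The genotype effect was then set between the tissues, as the difference of the 2 log2 fold changes in 1 fit of the 12 libraries. For *Htr2a*, picked on this value, it was 1.60 (standard error 0.253), between 1.42 and 1.83 without any 1 library and 1.35 with mouse 2 as the only *Snx14*-KO cerebellum. *Htr1a* gave 3.60 (standard error 0.908, adjusted p = 0.406, edgeR), *Htr4* 2.7 (standard error 1.08, adjusted p = 0.764, and 2.12 to 3.89 without any 1 library) and *Htr7* 0.92 (standard error 0.365, adjusted p = 0.759). These 3 were higher at an unadjusted p under 0.05 and 0 lower, as were 3.97% and 1.71% of the 19380 genes, and 0 of the 9 passed after adjustment (0% of all genes). DESeq2 called 0 of the 9 as well (0.147% of its genes higher and 0.00433% lower). *Htr1a* and *Htr4* passed the filter of the edgeR fit only through their counts in cortex, so the count of 3 is no support. Without cerebellum of *Snx14*-KO mouse 2, the one at the WT level, the values of *Htr1a* and *Htr7* were 4.13 and 1.23, given with no test, and edgeR called 251 of all genes higher in that fit. With mouse 2 alone they were 0.13 and -0.03. The other 6 receptors lay between -0.12 (*Htr1d*) and 1.40 (*Htr3a*).

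Of the serotonin receptor genes outside the 10, *Htr5a*, whose receptor acts through inhibitory G proteins, had its groups apart in both tissues, with *Snx14*-KO above WT, as 6.21% of all genes did in cerebellum and 4.57% in cortex. It measured 8.50, 9.36 and 8.17 CPM in *Snx14*-KO cerebella against 6.22, 5.99 and 7.13 in WT, and 26.7, 26.0 and 30.8 in *Snx14*-KO cortices against 21.7, 23.0 and 23.7. The log2 fold changes were 0.44 (standard error 0.142, adjusted p = 0.423, edgeR) and 0.29 (standard error 0.0971, adjusted p = 0.996, edgeR), so neither passed. *Htr5b* did not pass in cortex and was too low in cerebellum. *Htr2b* had at most 5 counts in a library and *Htr3b* at most 1.

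Genes that make serotonin and clear it were not called between genotypes in either tissue. Of the 7 genes of synthesis, 6 were tested and 0 called by edgeR or DESeq2 in cerebellum or cortex, with a median log2 fold change of 0.20 in cerebellum beside 0.00 over all genes. None had an unadjusted p under 0.05, beside 5.78% of all genes higher and 2.37% lower in cerebellum, and 2.24% and 2.26% in cortex. With at most 0.76% of all genes called by either tool in a direction, 0 of 6 does not tell the list from other genes. In cerebellum 2 of the 6 had every *Snx14*-KO library above every WT library and 0 had every one below, beside 6.21% and 6.32% of all genes. *Tph2*, the enzyme that commits tryptophan to serotonin in neurons, measured 0.433 to 1.00 CPM in all cerebella and 1.76 to 3.11 in cortices. Of the 7 genes of transport and breakdown, 4 were tested in cerebellum and 5 in cortex, again with 0 called by either tool and none with an unadjusted p under 0.05. *Slc6a4*, the serotonin transporter, had at most 0.161 CPM in any library, and *Maoa*, which breaks serotonin down, gave 0.00 in cerebellum and -0.04 in cortex.

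The signalling genes were called between tissues and not between genotypes by edgeR. Of 23 G proteins and effectors, 21 were tested in WT tissue; 9 were called lower in cerebellum and 3 higher (21.4% and 19.0% of all genes), including *Plcb3* (2.21, standard error 0.139) and *Plcb4* (1.95, standard error 0.0720), the phospholipases of Purkinje cells. In *Snx14*-KO against WT cerebellum edgeR called 0 of 21 and DESeq2 0, with 2 higher and 2 lower at an unadjusted p under 0.05 (5.78% and 2.37% of all genes). Those were *Plcb2* (1.18) and *Adcy5* (0.20), and *Adcy1* (-0.28) and *Plcb4* (-0.18). *Plcb2* measured 2.00 CPM in *Snx14*-KO mouse 3, the library with the high microglial markers, against 0.429 to 0.907 in the other 5 cerebella, and its log2 fold change was 0.55 without it. With mouse 2 as the only *Snx14*-KO cerebellum *Plcb2* gave 0.23, *Adcy5* 0.06, *Adcy1* -0.17 and *Plcb4* -0.09. In cortex edgeR and DESeq2 called 0 of 22, with *Gnaz* (0.16) higher and *Gnal* (-0.24) and *Adcy5* (-0.46) lower at that level (2.24% and 2.26% of all genes).

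Of 14 partners and regulators, 13 were tested in cerebellum and edgeR called 0 (0% of all genes higher and 0.00549% lower). *Rgs4*, which shortens Gi and Gq signals, measured 28.6, 21.5 and 27.8 CPM in *Snx14*-KO cerebella against 19.3, 16.6 and 17.9 in WT (log2 fold change 0.55, standard error 0.128, adjusted p = 0.242, edgeR), without overlap, and DESeq2 called it, the only one of the 13 (0.76% of its genes were called higher). Its log2 fold change was 0.66 and edgeR called it without *Snx14*-KO mouse 2 (adjusted p = 0.0258), in a fit that called 244 of all genes higher. With mouse 2 alone the value of *Rgs4* was 0.27. *Adarb1*, which edits the *Htr2c* transcript, measured 303, 281 and 260 CPM against 345, 339 and 361, also without overlap (-0.30, standard error 0.0723, adjusted p = 0.257, edgeR). Of the 13, 1 lay wholly above WT and 1 wholly below, beside 6.21% and 6.32% of all genes, which does not tell the list from other genes. In cortex edgeR and DESeq2 called 0 of 13 and none had an unadjusted p under 0.05, beside the low shares of all genes given above for cortex. *Rgs4* was itself a cortical gene, at 525 to 658 CPM in WT cortex.

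Across the 12 libraries the genes most like *Htr2a* by Pearson's correlation of log2 CPM were *Kcnt2* (0.997), *Igfbp4* (0.996), *Pde1a* (0.996), *Scara3* (0.996) and *Mal2* (0.995). The 12 points share the tissue split, which alone gives high values. Within the 6 cerebella the correlations of these 5 with *Htr2a* were 0.95 or 0.96, and within the 6 cortices they ran from 0.36 for *Scara3* to 0.92 for *Igfbp4*. The nearest gene was *Tox3* for *Htr1a* (0.996), *Gabra5* for *Htr7* (0.996), *Ctxn1* for *Htr3a* (0.997) and *Mc4r* for *Htr4* (0.943). It was *Dnah11* for *Htr1b* (0.990), *Gorasp2* for *Htr1f* (0.986), *Cfap65* for *Htr2c* (0.918) and *Tmem28* for *Htr1d* (0.783). For *Htr2c* the likeness to *Cfap65* was 0.97 within cerebellum and -0.09 within cortex.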

How the data were processed

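RNA from 1-month-old WT and *Snx14*-KO cerebellum and cortex was sequenced, 3 libraries per group. The authors trimmed the reads, aligned them to GRCm38 (STAR) and summed pairs over genes with featureCounts. The deposited values are raw counts per gene, with no normalization. Per the file headers (Subread 2.0.1) strand was ignored, pairs split between chromosomes were dropped, and a pair that overlapped several genes counted for each. Annotated gene lengths, in the deposited tables as the Length column, gave TPM. Left out were 26248 numbered features and 97 spike-in features of 81881. Totals of 16672589 to 19887427 counts per library set the precision of low genes.

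Counts were tested with edgeR 4.0.16 (R 4.3.3): TMM scaling, filterByExpr, quasi-likelihood F test and Benjamini-Hochberg adjustment over all genes tested. *Snx14*-KO was compared with WT in each tissue, cerebellum with cortex in each genotype, and the genotype effect between tissues. A call needed adjusted p under 0.05 and, except between tissues of the genotype effect, absolute log2 fold change over 0.50, the thresholds of the study. DESeq2 1.42.0, the tool of the study (1.38.3 there), RLE size factors, no filter, a replicate block, a fit of the 12 libraries and leaving out each library were alternatives. Leaving out *Snx14*-KO cerebella 1 and 3, or WT cerebella 1 and 3, was added after seeing the data. The code was tested on simulated counts.

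Replicates are mice by the labels, and no pair of libraries agreed within counting noise. The labels give a mouse number with each tissue, read here as the same animal within a genotype; deviations of same-numbered cerebellum and cortex libraries correlated by 0.076 to 0.104 in WT and 0.030 to 0.288 in *Snx14*-KO mice. Intervals are exact binomial ones.

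Members, gene lists, markers and tests were chosen with earlier results of these data known. Genes named were the 10 receptors, the 4 other *Htr* genes measured, the pathway and marker lists, *Snx14*, the 5 genes most alike to *Htr2a* and the single most alike for each other receptor. Some genes that the rule names are not reported here. Names came from GENCODE vM21, which matched 55450 of 55536 gene IDs.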

Additional observations from a re-analysis of the deposited data

Results flagged for a closer look

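*Htr2a* stood out because each *Snx14*-KO cerebellum lay above the WT cerebellar mean (1.36 CPM) and each *Snx14*-KO cortex below the WT cortical mean (46.3 CPM). The difference of the log2 fold changes, cerebellum minus cortex, was 1.60. Since *Htr2a* was picked on this value in the same libraries, the difference was not tested.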

How the results depend on the processing

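Of the receptors other than *Htr2a*, edgeR called 0 higher between genotypes in cerebellum. DESeq2 and edgeR without the filter each called 1 (*Htr1a*), and fits without 1 library called 0 to 2, the 2 (*Htr1a*, which then passes the filter only through the libraries where it is high, and *Htr7*) without *Snx14*-KO cerebellum 2. That fit leaves out the 1 *Snx14*-KO cerebellum in which both were at the WT level, so its calls are no support. For the genotype effect between tissues the 0 calls became 1 (*Htr1a*) with no filter and 0 to 2 without 1 library, the 2 again without *Snx14*-KO cerebellum 2. In WT tissue the 1 call higher in cerebellum became 1 to 2 without 1 library, and in *Snx14*-KO tissue the 2 became 1 to 2, and 1 without cerebella 1 and 3, which was added after seeing the data. No called direction reversed, and the cause of these changes was not tested, other than that the filter removed *Htr1a*.

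Over all genes the same choices moved the background. In cerebellum 0 genes higher and 1 lower became 165 and 11 (DESeq2), 329 and 18 (no filter) and 43 and 2 (fit of the 12 libraries), and 0 to 244 and 1 to 10 without 1 library (244 and 10 without *Snx14*-KO cerebellum 2). In cortex 0 and 1 became 3 and 5 (DESeq2) and 85 and 64 (no filter), with 2 lower in the fit of the 12 libraries and 1 to 2 without 1 library. Between tissues 0 and 0 became 34 and 1 (DESeq2) and 373 and 45 (no filter), and 0 to 251 and 0 to 6 without 1 library.

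WT and *Snx14*-KO mice that share a number are different mice; their deviations correlated by 0.001 to 0.074 in cerebellum and -0.033 to 0.116 in cortex. With the replicate number as a block, cerebellar log2 fold changes were 1.45 for *Htr2a* and 0.92 for *Htr7*, and edgeR again called 0 higher and 1 lower of all genes in each tissue. With the mouse as a block the difference between tissues was 1.60 for *Htr2a* and 3.41 for *Htr1a*. Beyond *Htr4* in *Snx14*-KO tissue, given above, the block changed no call of the 10 receptors. Of the others *Htr5b*, with 0 to 43 counts a library, became called lower in WT cerebellum (-1.99 to -2.44, adjusted p = 0.0363, edgeR) and lost its call in *Snx14*-KO cerebellum (-1.34 to -1.37, adjusted p = 0.0778).

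Other scaling moved the median of all genes by less than 0.02. Receptors under about 10 counts a library are limited by depth.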

Other observations

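The other marker lists gave the following sums. The 5 markers of serotonin neurons summed to 11.6 to 13.8 CPM in WT cerebellum, 11.7 to 14.3 in *Snx14*-KO cerebellum, 11.8 to 14.6 in WT cortex and 10.6 to 15.4 in *Snx14*-KO cortex, mostly from *Slc18a2* and *Ddc*; *Fev*, which defines these cells, was at 0 in WT cerebellum. The 8 markers of the interneuron class that carries Htr3a summed to 208 to 236 CPM in WT cortex and 215 to 231 in *Snx14*-KO cortex, but to 416 to 636 in cerebellum, where *Htr3a* had at most 4 counts. The cerebellar sums came mostly from *Calb2* (201 to 344 CPM) and *Reln* (135 to 210 CPM). Of the 8 markers, 4 were higher and 4 lower in WT cerebellum than in WT cortex. Among the lower was *Vip*, at 0.0576 to 0.161 CPM against 49.8 to 58.6. The 10 brainstem markers, mostly Hox genes, summed to at most 5.52 CPM in any library.

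The 10 Purkinje cell markers summed to 10970 to 12320 CPM in WT cerebellum and 8654 to 11330 in *Snx14*-KO cerebellum, against 1058 to 1294 in cortex. In *Snx14*-KO mouse 3, 9 of the 10 lay below every WT library. The 10 granule cell markers summed to 3580 to 4201 CPM in WT and 2973 to 3720 in *Snx14*-KO cerebellum, with 9, 3 and 8 of the 10 below every WT library in mice 1, 2 and 3, and the 8 markers of Golgi and molecular layer interneurons to 1671 to 1829 and 1390 to 1728. The 12 forebrain markers summed to 2425 to 2903 CPM in cortex, 54.4 to 68.0 in WT cerebellum and 183, 70.5 and 178 in *Snx14*-KO cerebella, with *Nrgn* at 121 and 117 CPM in mice 1 and 3 and at most 9.14 in the other cerebella. The 8 microglial markers summed to 411 to 496 CPM in cortex.

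*Tph1*, the synthesis enzyme of non-neuronal tissue and the pineal gland, measured 0.555, 0.115 and 1.02 CPM in WT cerebella and at most 0.0541 in *Snx14*-KO cerebella, too few counts to be tested.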
